A study of Homo sapiens with 6 samples.

Results

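E2F transcription factors and the pocket proteins that bind them were followed in polyadenylated RNA of U-2 OS cells, an established human osteosarcoma line, after depletion of SFPQ, an RNA- and DNA-binding protein of the nucleus. The group held E2F1 to E2F8, RB1 and RBL1, chosen by gene symbol and matched through the Ensembl identifier of each row. All 10 genes were present among the 60664 rows of the count table, and all 10 were among the 29022 genes that reached at least 10 counts over all libraries and entered the test. The siSFPQ group received siRNA against SFPQ and the siControl group a control siRNA, both with the lipid reagent RNAi-MAX, with 30 nM as the stated final siRNA concentration. Each group had 3 replicate libraries of this polyploid line. The hours between transfection and harvest are not given in the sources used here, and no rescue of SFPQ was among these samples. Replicates were described as biological, so the tests measure the spread between replicates of 1 line.

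E2F proteins bind DNA together with a dimer partner of the DP family and control genes needed for DNA replication and division. E2F1, E2F2 and E2F3 activate transcription, and RB1, the retinoblastoma protein, binds and silences them until cyclin-dependent kinases phosphorylate it. E2F4 and E2F5 act mostly as repressors with the relatives of RB1, RBL1 (p107) and RBL2 (p130), in a complex with the MuvB core called DREAM. E2F6 represses without a pocket protein, through a Polycomb complex, and E2F7 and E2F8 are atypical repressors that bind without a dimer partner.

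SFPQ RNA was lower in each siSFPQ library. After scaling by trimmed mean of M values (TMM), the siControl libraries held 22380.7, 23138.8 and 21811.2 normalized counts of SFPQ, and the siSFPQ libraries held 3238.5, 3780.1 and 3108.0. SFPQ RNA fell by 85.0% (log2 fold change -2.73 ± 0.0498 SE, adjusted p = 6.34e-30 by the edgeR quasi-likelihood test with Benjamini-Hochberg adjustment, as for every adjusted p given here). Total counts ran from 43469321 to 47119203 per library. Of the 8 osteoblast-lineage markers examined, RUNX2, ALPL, COL1A1 and SPARC were above 1 CPM (counts per 1e6 counts of a library) in every library, whereas COL1A2 was at 0.679 to 1.19 CPM and SP7, BGLAP and IBSP were at or near 0. Their summed level was 5040.2 to 5373 CPM in siControl and 4304.7 to 4345.6 CPM in siSFPQ. The 4 haematopoietic markers together stayed under 1 CPM in every library. The summed level of the 4 epithelial markers was 328 to 344 CPM in siControl and 727 to 796 CPM in siSFPQ, nearly all of it KRT8 and KRT18, and that of the 4 endothelial markers was 4.46 to 5.96 and 6.9 to 7.48 CPM. The part of these differences in the results was not tested.

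Across the 10 genes, E2F5 rose, E2F1, E2F6, E2F8, RB1 and RBL1 fell, and E2F2, E2F3, E2F4 and E2F7 did not pass the test at an adjusted p of 0.05. Thus 5 of 10 were called lower, where 22.1% of all 29022 tested genes and 34.5% of the 15641 genes with a mean of at least 1 CPM were, and 1 of 10 was called higher, where 22.4% and 30.1% were. All 10 genes had a mean of at least 1 CPM. No member passed the log2 fold change of 1.5 that the study required in either direction, the farthest from 0 being E2F5 at 0.89. Past it were 10.3% of all tested genes, and 277 higher and 649 lower of the 15641 genes with a mean of at least 1 CPM. In 6 of 10 genes the 3 siSFPQ libraries did not overlap the 3 siControl libraries, against 52.3% of all tested genes. The median log2 fold change of the 10 genes was -0.18, beside 0.02 over all tested genes and -0.02 over those with at least 1 CPM. In bulk RNA, fewer cells in a phase of the cycle and less RNA per cell cannot be told apart, and this holds for each change given here.

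**Figure D1:**
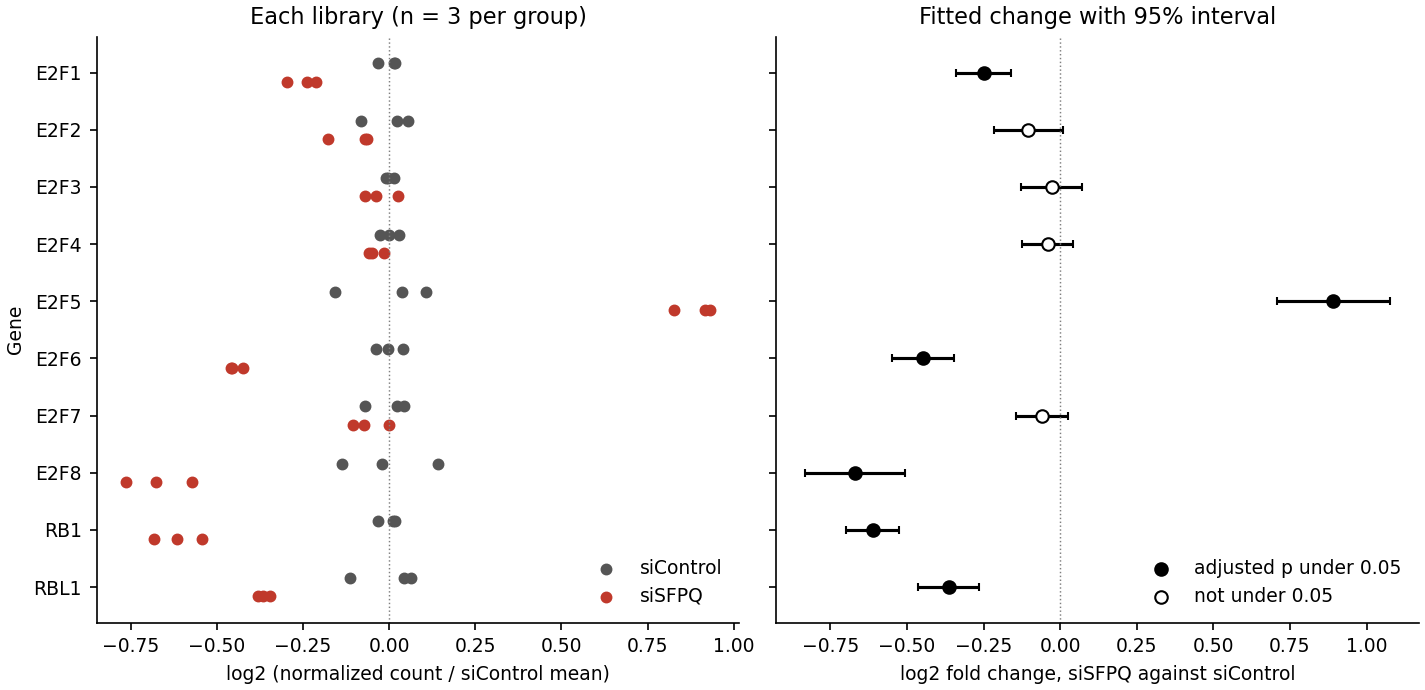
Change of the E2F and pocket genes after SFPQ depletion. Left, each dot is 1 library, as log2 of its TMM-normalized count over the siControl mean of that gene (grey, siControl; red, siSFPQ; 3 libraries each). Right, fitted log2 fold change with its 95% confidence interval, filled where the adjusted p was under 0.05. E2F5 lies alone on the right at 0.89, E2F8 and RB1 lie farthest left at -0.67 and -0.61, and the intervals of E2F2, E2F3, E2F4 and E2F7 include 0.

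Promoter sequences of the E2F1, RBL1, E2F3 and E2F6 genes are shown here for combinations seen in the data. E2F1 and RBL1 hold a match to the E2F motif and fell. E2F3 holds a match and did not pass the test, and E2F6 holds none and fell. E2F4 and E2F7, which hold none and did not pass the test, are not shown. Each sequence shown runs 5′ to 3′ on the strand of the gene. It covers 250 bases before to 50 bases after the transcription start annotated by RefSeq (GRCh38.p14). Capitals mark the E2F motif, searched on both strands as TTTCCCGC, TTTCGCGC, TTTGCCGC or TTTGGCGC.
E2F1, chr20:33686336-33686635, minus strand: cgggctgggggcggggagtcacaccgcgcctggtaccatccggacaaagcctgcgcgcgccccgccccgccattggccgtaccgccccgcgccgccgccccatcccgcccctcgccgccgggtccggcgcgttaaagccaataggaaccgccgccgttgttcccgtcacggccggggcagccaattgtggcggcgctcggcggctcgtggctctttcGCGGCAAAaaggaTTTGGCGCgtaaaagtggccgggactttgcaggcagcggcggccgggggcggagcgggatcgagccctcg
RBL1, chr20:37095948-37096247, minus strand: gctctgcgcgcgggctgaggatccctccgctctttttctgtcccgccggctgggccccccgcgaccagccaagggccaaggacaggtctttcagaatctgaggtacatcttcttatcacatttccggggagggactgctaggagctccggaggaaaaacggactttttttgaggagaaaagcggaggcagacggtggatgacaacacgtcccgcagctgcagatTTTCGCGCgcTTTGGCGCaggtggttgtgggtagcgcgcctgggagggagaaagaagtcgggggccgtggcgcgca
E2F3, chr6:20401629-20401928, plus strand: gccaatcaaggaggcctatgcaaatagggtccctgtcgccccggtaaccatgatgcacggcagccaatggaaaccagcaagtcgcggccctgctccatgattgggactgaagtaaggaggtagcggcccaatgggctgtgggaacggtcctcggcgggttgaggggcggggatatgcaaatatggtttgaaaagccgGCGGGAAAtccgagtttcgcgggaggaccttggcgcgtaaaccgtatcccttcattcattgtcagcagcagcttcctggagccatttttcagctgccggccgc
E2F6, chr2:11466112-11466411, minus strand: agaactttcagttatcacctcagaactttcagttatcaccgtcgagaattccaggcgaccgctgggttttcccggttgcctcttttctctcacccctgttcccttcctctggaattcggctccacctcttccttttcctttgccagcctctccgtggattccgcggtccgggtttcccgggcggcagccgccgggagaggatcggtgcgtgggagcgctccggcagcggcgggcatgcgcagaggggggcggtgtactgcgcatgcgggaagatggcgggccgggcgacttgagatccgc

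A RefSeq window was at hand for 8 of the 10 genes, and for 7 of them it lay at the start of the gene. The window of RB1 lay 172706 bases inside the gene and is not used. Numbering the start site as base 0, the E2F1 matches spanned bases -33 to -26 and -20 to -13, and the RBL1 matches spanned -26 to -19 and -16 to -9. E2F2 held 1 match, at -42 to -35, and E2F3 held 1, at -53 to -46. The windows of E2F4, E2F6 and E2F7 held none of these letters. Over all 35116 RefSeq windows of this length, 3.31% held the motif. A second motif, the cell cycle homology region (CHR, TTTGAA or TTCGAA, both strands), through which MuvB complexes bind, occurred in 16.4% of all windows and, among the 7 genes, only in E2F3. The 4 genes with an E2F match thus comprised E2F1 and RBL1, which fell, and E2F2 and E2F3, which did not pass the test. Among all genes with at least 1 CPM and a window, 39.3% of the 725 with an E2F match were lower and 26.5% higher, beside 35.9% lower and 30.9% higher of the 10460 without one.

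**Figure D2:**
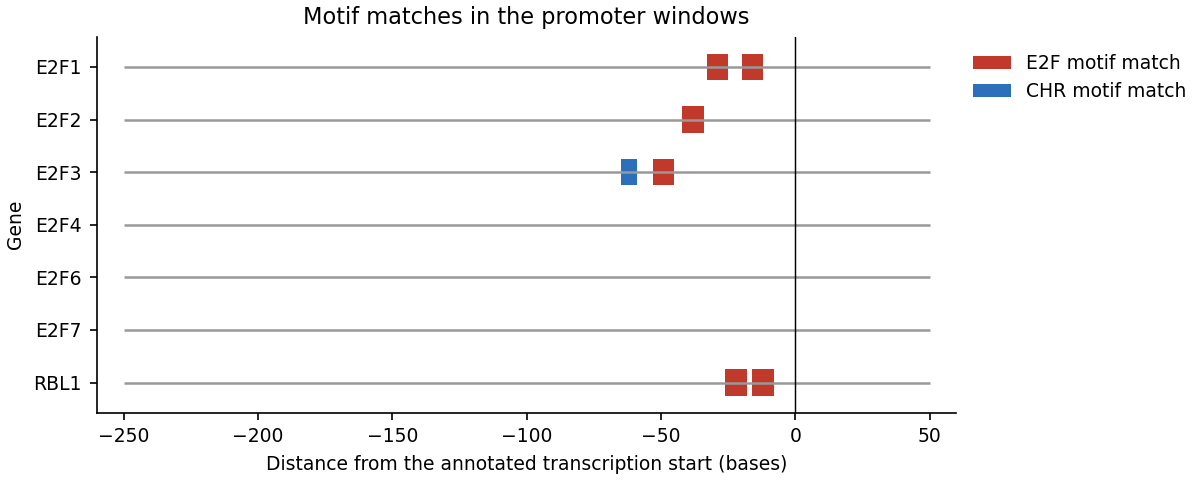
Matches to the E2F motif (red) and the CHR motif (blue) in the promoter windows of the 7 genes whose RefSeq window lies at the gene start. The horizontal axis is the distance in bases from the annotated transcription start, from 250 before to 50 after. E2F1 and RBL1 hold 2 E2F matches each within 33 bases of the start, E2F2 and E2F3 hold 1 each, and the grey lines of E2F4, E2F6 and E2F7 carry none.

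Among the activator E2Fs, E2F1 fell by 15.9% and the other two did not pass the test. E2F1 (chromosome 20, 33675477 to 33686385, minus strand, GRCh38) drives entry into S phase and is linked to apoptosis. It had 2843.4, 2848.0 and 2751.3 normalized counts in siControl and 2429.9, 2288.8 and 2386.0 in siSFPQ. The groups did not overlap, and the log2 fold change was -0.25 ± 0.0444 (SE, 95% interval -0.34 to -0.16, adjusted p = 1.79e-05).

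E2F2 (chromosome 1, 23506438 to 23531233, minus strand) had 1618.1, 1471.0 and 1582.2 normalized counts in siControl and 1488.3, 1375.8 and 1483.5 in siSFPQ. The lowest siControl library lay below 2 siSFPQ libraries, so the groups overlapped. The log2 fold change of -0.10 had an interval from -0.22 to 0.01 (adjusted p = 0.131), which includes changes close to that of E2F1. E2F3 (chromosome 6, 20401879 to 20493714, plus strand) had 1899.6, 1922.0 and 1890.0 normalized counts in siControl and 1936.9, 1855.3 and 1811.9 in siSFPQ. The highest of these 6 values was a siSFPQ library. The log2 fold change of E2F3 was -0.03 with an interval from -0.13 to 0.07 (adjusted p = 0.696), and its sign turned when libraries were scaled by total counts alone.

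E2F4 and E2F5, the pocket-bound repressor E2Fs, differed from each other. E2F4 (chromosome 16, 67192155 to 67198918, plus strand), the most abundant E2F of many cell types, had 3636.9, 3503.0 and 3563.5 normalized counts in siControl and 3529.3, 3428.8 and 3445.3 in siSFPQ. The groups overlapped, and the log2 fold change of -0.04 had an interval from -0.12 to 0.04 (adjusted p = 0.453), with the opposite sign under scaling by total counts alone.

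E2F5 (chromosome 8, 85177154 to 85217158, plus strand) was the only member that rose. It had 317.6, 278.0 and 333.9 normalized counts in siControl and 591.0, 549.0 and 584.9 in siSFPQ. Each siSFPQ library exceeded each siControl library, and the increase was 1.86-fold (log2 fold change 0.89 ± 0.0903 SE, interval 0.71 to 1.07, adjusted p = 3.86e-10). Other genes on the opposite strand cover 18.8% of the exon bases of E2F5. The larger of them, RBIS, shares 997 exon bases with it and had 500, 562 and 649 counts in siControl and 457, 478 and 477 in siSFPQ. RBIS thus moved the other way (log2 fold change -0.28, adjusted p = 0.0091). The library kit keeps strand, but whether counting used it is not given in the sources used here. If it did not, reads of E2F5 and RBIS in the shared bases cannot be told apart.

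E2F6 fell by 26.6%. This repressor (chromosome 2, 11444375 to 11466177, minus strand) had 2000.8, 2114.0 and 2049.5 normalized counts in siControl and 1530.5, 1495.2 and 1497.3 in siSFPQ. The siSFPQ libraries lay close together and well under the siControl libraries, with a log2 fold change of -0.45 ± 0.0495 (SE, interval -0.55 to -0.35, adjusted p = 2.82e-09). Its 4 processed pseudogenes held few reads, the most in E2F6P2 with 4 to 12 counts per library.

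The atypical repressors also differed. E2F7 (chromosome 12, 77021248 to 77065569, minus strand) had 4896.3, 4960.0 and 4591.3 normalized counts in siControl and 4813.4, 4579.5 and 4480.9 in siSFPQ. These values overlapped, and the log2 fold change of -0.06 had an interval from -0.14 to 0.03 (adjusted p = 0.273), with the opposite sign under scaling by total counts alone. E2F8 (chromosome 11, 19224063 to 19241620, minus strand) had 940.8, 776.0 and 841.2 normalized counts in siControl and 533.2, 502.0 and 573.1 in siSFPQ. Each siSFPQ library lay far under each siControl library, and E2F8 fell by 37.1% (log2 fold change -0.67 ± 0.0798 SE, interval -0.83 to -0.51, adjusted p = 1.31e-08). The intervals of E2F7 and E2F8 did not overlap.

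Among the pocket proteins RB1 fell by 34.6% and RBL1 by 22.3%. RB1 (chromosome 13, 48303744 to 48599436, plus strand) had 4874.3, 4894.0 and 4729.6 normalized counts in siControl and 3009.5, 3318.2 and 3156.3 in siSFPQ. The groups were widely separated, and the log2 fold change was -0.61 ± 0.0423 (SE, interval -0.70 to -0.53, adjusted p = 3.68e-14), the lowest adjusted p of the 10 genes. Among genes lying within or across RB1 on the opposite strand without shared exon bases, RCBTB2 fell (287, 282 and 275 counts in siControl, 128, 122 and 146 in siSFPQ, log2 fold change -1.10, adjusted p = 2.35e-09), and LPAR6, at 7 to 15 and 19 to 28 counts, rose (log2 fold change 1.12, adjusted p = 0.0374).

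RBL1 (chromosome 20, 36996349 to 37095997, minus strand) had 2375.5, 2683.0 and 2646.1 normalized counts in siControl and 1991.6, 2020.7 and 1972.7 in siSFPQ. All siSFPQ libraries lay under all siControl libraries, with a log2 fold change of -0.36 ± 0.0492 (SE, interval -0.46 to -0.26, adjusted p = 1.56e-07). The interval of RBL1 lay wholly above that of RB1. The third pocket gene, RBL2, is no member of the group and was read from the DREAM list. It had 3889.4, 4077.0 and 3985.6 normalized counts in siControl and 3877.9, 3983.6 and 4065.7 in siSFPQ, and its log2 fold change had an interval from -0.09 to 0.08 (adjusted p = 0.965). Opposite-strand genes cover 16.4% of the exon bases of RBL2, among them AKTIP, which fell from 1328, 1471 and 1379 counts to 658, 706 and 732 (adjusted p = 3.49e-15).

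Levels were compared between genes as TMM-normalized counts per kb of annotated exon. In siControl the order was E2F1 (1046.2 ± 20.3, SD, n = 3), E2F4 (992.2 ± 18.7), E2F7 (765.5 ± 31.3), RB1 (751.1 ± 13.9), E2F6 (505.2 ± 13.96), RBL1 (431.2 ± 28.2), E2F3 (366.8 ± 3.16), E2F2 (285.1 ± 14.04), E2F8 (206.3 ± 20.1) and E2F5 (51.6 ± 4.79). Of the neighbours in this order, only E2F7 and RB1 overlapped between libraries. In siSFPQ, E2F4 (964.4 ± 15.0) stood ahead of E2F1 (880.4 ± 26.8), and E2F7 (735.1 ± 27.1) stood ahead of RB1 (491.4 ± 24.0). E2F6 (370.7 ± 4.88) and E2F3 (359.9 ± 12.2) then overlapped, followed by RBL1 (335.0 ± 4.06). E2F2 (265.3 ± 11.6), E2F8 (129.7 ± 8.62) and E2F5 (95.8 ± 3.79) kept the 3 lowest places. With the length of the longest transcript in place of all exon bases, E2F4 stood ahead of E2F1 and RB1 ahead of E2F7 in siControl, so these places depend on the length used.

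**Figure D3:**
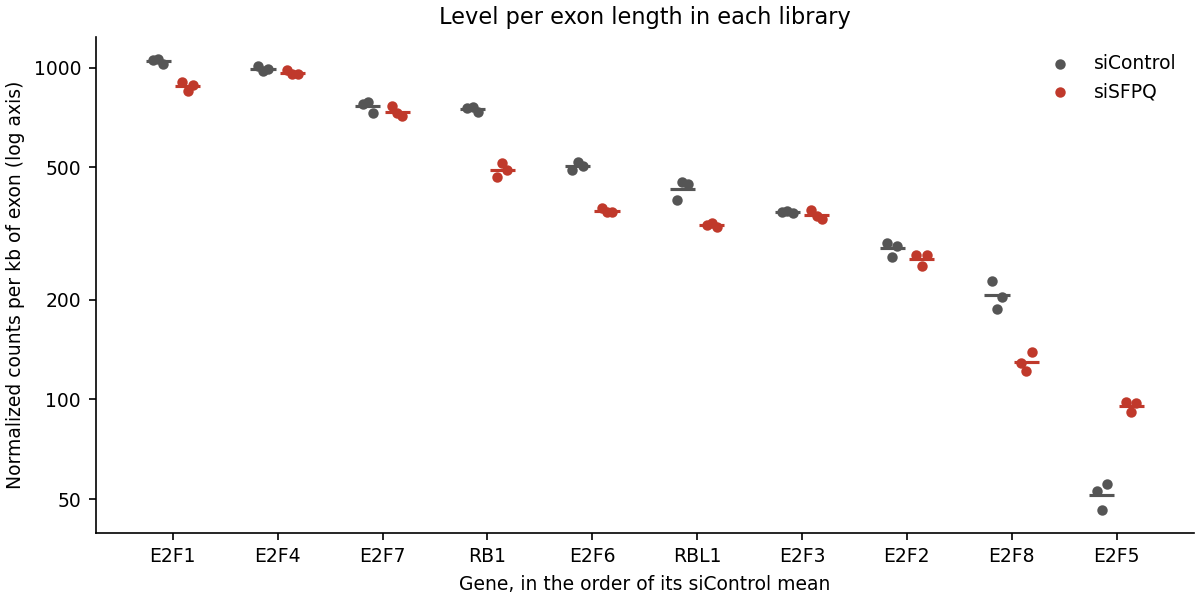
Level of each member per exon length. Dots are libraries and bars are group means (grey, siControl; red, siSFPQ; n = 3 each), in TMM-normalized counts per kb of annotated exon on a log axis, with genes in the order of their siControl mean. E2F5 is the lowest gene in both groups, at 51.6 and 95.8, and the distance between E2F8 and E2F5 is smaller in siSFPQ.

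Summed by role on this per-kb scale, the activators E2F1 to E2F3 went from 1698.1 ± 21.3 to 1505.6 ± 44.4 (SD, n = 3) and RB1 with RBL1 from 1182.3 ± 27.5 to 826.3 ± 26.7. The ratio of activators to these pocket genes was 1.49, 1.40 and 1.42 in siControl, and each siSFPQ library was above these, at 1.93, 1.71 and 1.83. This ratio leaves out RBL2, which did not pass the test. With RBL2 included, the pocket sum went from 1673.5 ± 39.0 to 1316.5 ± 33.4. The ratio of activators to the atypical pair was 1.71, 1.74 and 1.80 in siControl and 1.73, 1.72 and 1.77 in siSFPQ, with overlapping groups. E2F5 made up 4.94% ± 0.389 of the E2F4 and E2F5 sum in siControl and 9.04% ± 0.251 in siSFPQ, and that sum was 1043.8 ± 22.1 and 1060.2 ± 17.9, which overlapped. RBL2 made up 29.4% ± 0.0529 of the 3 pocket genes in siControl and 37.2% ± 0.707 in siSFPQ. These sums and ratios describe RNA of the 10 genes and RBL2 and were not tested, since a permutation of 3 against 3 libraries cannot give a two-sided exact p under 0.1.

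The genes differ in length, and the class of the longest genes stood apart in its changes. RB1 spans 296 kb and RBL1 99.6 kb, E2F3 spans 91.8 kb, and the other 7 span 6.76 to 44.3 kb. Among genes with at least 1 CPM, 62.3% of the 3061 that span 100 kb or more were lower and 16.6% higher (median log2 fold change -0.34). Of the 4008 genes of 10 to 30 kb, 1002 were lower and 1548 higher (median 0.07). The 4643 genes of 30 to 100 kb, the class of RBL1, E2F3, E2F5 and E2F7, were lower in 34.4% and higher in 32.4% of cases (median -0.01). RB1 thus belonged to a length class in which most genes fell, whereas E2F8 (17.6 kb), E2F6 (21.8 kb) and E2F1 (10.9 kb) belonged to one in which more genes rose than fell. The part of gene length in these changes was not tested.

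Both tested E2F dimer partners fell. TFDP1, the main partner of the activators, decreased by 14.5% (log2 fold change -0.23, adjusted p = 3.22e-06), and TFDP2 by 26.3% (-0.44, adjusted p = 1.39e-08). TFDP3 had too few counts to be tested. In the list of the MuvB core and its DREAM and MYB-MuvB partners, 4 of 9 genes were lower and the other 5 did not pass the test, with a median of -0.14. The share called lower was 44.4%, near the 34.5% of all genes with at least 1 CPM. LIN52, the core subunit through which pocket proteins join the complex, had 1847.5, 1890.0 and 1887.0 normalized counts in siControl and 672.4, 693.8 and 647.0 in siSFPQ. It fell by 64.2% (log2 fold change -1.48 ± 0.0578 SE, adjusted p = 7.36e-21). LIN52 spans 117 kb, TFDP2 205 kb and LIN54, which did not pass the test, 103 kb. RBBP4, a histone-binding subunit, fell by 15.4%, LIN9 fell by 9.81% and the forkhead factor FOXM1 fell by 9.16% (adjusted p = 1.93e-06, 0.021 and 0.00215). Under scaling by total counts alone LIN9 and FOXM1 were no longer called (adjusted p = 0.195 and 0.0829), and LIN9 also lost its call without siControl replicate 1 or 2 or siSFPQ replicate 1 or 3 (adjusted p = 0.0653 to 0.129). LIN54, which binds the CHR, was at -0.11 on the log2 scale (adjusted p = 0.0519, and 0.0358 to 0.0475 in 5 alternatives, the replicate block among them), and MYBL1 and MYBL2, which join MuvB for late cell cycle genes, were at -0.04 and -0.06. LIN37 could hardly be read, with 20.5 to 48.1 normalized counts per library. Other genes cover 26.7% of its exon bases on its own strand and 41.8% on the opposite strand.

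Of the cyclins and kinases that phosphorylate RB1, 6 of 9 were lower (66.7%, beside 34.5% of all genes with at least 1 CPM) and 2 higher (22.2%, beside 30.1%), with a median of -0.15. The D cyclins moved in different directions. CCND3 rose 1.76-fold, from 1744.3, 1849.0 and 1969.3 normalized counts to 3362.2, 3021.7 and 3394.0 (log2 fold change 0.81, adjusted p = 2.89e-15), and CCND2 rose by 15.1% (adjusted p = 3.9e-05), whereas CCND1 fell by 16.4% (adjusted p = 2.41e-07). Their partner kinase CDK6 fell by 42.6%, from 15903.4, 17219.9 and 15987.7 normalized counts to 9438.0, 9624.8 and 9137.5 (log2 fold change -0.80, adjusted p = 2.26e-18), and CDK4 fell by 9.60% (adjusted p = 0.00279). CDK6 spans 232 kb and CDK4 8.29 kb, and CCND3, which rose, spans 115 kb. Opposite-strand genes cover 44.2% of the exon bases of CDK4 and 37.1% of those of CCNE2. Another gene covers 12.5% of those of CCND2 on its own strand. CCNE1, CCNE2 and their kinase CDK2 fell by 9.26%, 22.9% and 20.8% (adjusted p = 0.00517, 7.85e-04 and 6.68e-08), and CDC25A, a phosphatase that activates CDK2, was at -0.004 (interval -0.10 to 0.10). Under scaling by total counts alone CDK4 and CCNE1 were no longer called (adjusted p = 0.0756 and 0.123), and CCNE1 was not called without siSFPQ replicate 1 (adjusted p = 0.0555).

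Of the inhibitors of these kinases, 1 of 6 tested genes was higher (16.7%) and 3 were lower, with a median of -0.23. Of all genes with at least 1 CPM, 30.1% were higher and 34.5% lower. CDKN1A (p21) rose 1.61-fold, from 11602.2, 11136.9 and 11704.2 normalized counts to 18913.2, 16598.8 and 19887.6 (log2 fold change 0.69, adjusted p = 1.08e-14). CDKN2C (p18) fell by 48.6% and CDKN1B (p27) by 34.6% (adjusted p = 3.59e-18 and 3.58e-13), and CDKN2B (p15) by 19.5% (adjusted p = 0.00122). CDKN1C and CDKN2D did not pass the test, and CDKN2A, with 3 counts over all 6 libraries, was not tested.

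Among 48 G1/S genes known as E2F targets, 31 were lower, 4 higher and 13 did not pass the test, with a median log2 fold change of -0.21. The lowest were POLA1, the catalytic subunit of DNA polymerase alpha (-1.85, a decrease of 72.2%), RRM2, a subunit of ribonucleotide reductase (-1.09), and GINS1 of the replicative helicase (-1.09), with adjusted p of 2.45e-24, 1.39e-22 and 1.54e-19. POLA1 had 2673.1, 2574.0 and 2631.0 normalized counts in siControl and 710.6, 767.2 and 709.2 in siSFPQ, and was the only gene of the list past 1.5. It spans 303 kb. The highest were the licensing factors CDT1 (0.18, adjusted p = 0.00079) and ORC1 (0.16, adjusted p = 0.00638) and the ligase LIG1 (0.11, adjusted p = 0.0208), followed by RFC4 of the clamp loader (0.106, adjusted p = 0.0481). LIG1 was no longer called without siControl replicate 1 or siSFPQ replicate 2 (adjusted p = 0.0646 and 0.147). Lower calls thus made up 64.6% of this list and higher calls 8.33%, beside 34.5% and 30.1% of all genes with at least 1 CPM. The E2F motif occurred in 26 of the 42 targets with a window (61.9%), where a gene counted if any of its windows held it. On this count per gene, 725 genes with at least 1 CPM held the motif and 10460 did not.

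Among 38 G2/M genes bound by DREAM or FOXM1, 28 were lower, 1 higher and 9 did not pass the test, with a median of -0.19. The lower calls were 73.7% of the list, beside 34.5% of all genes with at least 1 CPM. The lowest among called genes with at least 1 CPM were CDC25C, the phosphatase that activates CDK1 (-0.49), the kinetochore motor CENPE (-0.47) and the proliferation marker MKI67 (-0.43), with adjusted p of 1.6e-08, 1.29e-10 and 1.75e-08. NEK2, a kinase of centrosome separation, rose by 21.2% (0.28, adjusted p = 6.83e-07). The CHR motif occurred in 26 of 33 genes with a window (78.8%), where a gene counted if any of its windows held it. On this count per gene, 1754 genes with at least 1 CPM held the motif and 9431 did not. PRC1 and NUSAP1, spindle genes of this list, held only 36.1 to 49.1 and 12.8 to 36.1 normalized counts, and other genes cover 57.6% and 86.8% of their exon bases on the same strand, so their values are uncertain.

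Of 8 apoptosis genes linked to E2F1, 3 were higher (37.5%, beside 30.1% of all genes with at least 1 CPM) and 2 lower, with a median of 0.05. BBC3 (PUMA) rose 1.90-fold, from 1127.2, 1213.0 and 1193.2 normalized counts to 2283.4, 2051.0 and 2375.1 (adjusted p = 1.28e-15), and PMAIP1 (NOXA) rose by 46.6% (adjusted p = 2.17e-12). TP73, a p53 relative and a direct E2F1 target, fell by 49.4%, from 747.4, 792.0 and 708.9 to 342.4, 374.8 and 419.2 (adjusted p = 8.74e-12), and BCL2L11 (BIM) was lower at -0.16 (adjusted p = 0.0128). BCL2L11 lost its call under scaling by total counts alone and without siControl replicate 2 or siSFPQ replicate 3 (adjusted p = 0.0504 to 0.152). CDKN1A, BBC3 and PMAIP1 are also known as p53 targets, but no list of p53 targets was examined here. The part of p53 in these changes was not tested.

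Of 12 subunits of PRC1.6, the Polycomb complex that E2F6 joins, 5 were lower and 3 higher, with a median of 0.05 and none past -0.39 or 0.19. The shares of 41.7% lower and 25% higher lay near the 34.5% and 30.1% of all genes with at least 1 CPM. YAF2, L3MBTL2 and WDR5 were the lowest (-0.39, -0.34 and -0.25), RNF2 and CBX3 were at -0.22 and -0.12, and PCGF6, which defines the complex, RING1 and MAX were the highest (0.19, 0.18 and 0.17). Among 13 germline genes that E2F6 is known to silence, 10 could be tested and 5 had a mean of at least 1 CPM. Of these 10, 2 were higher and 3 lower, with a median of 0.15, where 22.4% and 22.1% of all tested genes were. HSF2BP, a meiotic recombination gene, rose from 114.2, 106.0 and 128.3 normalized counts to 234.1, 205.5 and 228.8 (log2 fold change 0.94, adjusted p = 3.77e-07). HSF2BP spans 130 kb. TDRD1, the other gene called higher, had 0.0, 0.0 and 1.0 normalized counts in siControl and 3.1, 3.9 and 5.9 in siSFPQ. It reached the limit of 10 counts in total only through its siSFPQ counts, so its call is no support. In 9 of the 13 alternatives, DESeq2 and the fit with a replicate block among them, HSF2BP alone of this list was called higher. STAG3, a meiotic cohesin subunit, fell from 156.3, 162.0 and 163.4 to 111.4, 93.9 and 112.4 (-0.60, adjusted p = 8.37e-04). The alpha tubulin genes TUBA3E (-3.27, adjusted p = 4.84e-13) and TUBA3C (-0.74, adjusted p = 2.93e-17) were lower, but they have near-identical copies between which reads can be split, so their values are uncertain.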

How the data were processed

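RNA-seq libraries of polyadenylated RNA (TruSeq stranded mRNA kit, paired reads) came from U-2 OS cells given control or SFPQ siRNA, 3 libraries each. The authors quantified genes with STAR 2.7.9a against the Ensembl annotation of GRCh38 and deposited 1 table of raw counts per Ensembl gene. The kit keeps strand, but whether counting used it is not given in the sources used here. The limit stated for E2F5 thus holds for other named genes whose exon bases are covered on the opposite strand. Among these are CDK4 (44.2%), CCNE2 (37.1%), L3MBTL2 (23.2%), RBBP4 (22.8%), STAG3 (20.8%) and CDKN2C (20.4%). Symbols and exon lengths came from GENCODE release 44 on GRCh38, which held 99.67% of the 60664 identifiers, and promoter windows from RefSeq tables.

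Genes with at least 10 counts in total (29022) were tested with the edgeR 4.0.16 quasi-likelihood test in R 4.3.3 after TMM scaling, with no covariate. P-values were adjusted by Benjamini-Hochberg over all tested genes and called at 0.05, and separately past a log2 fold change of 1.5, the thresholds of the study. Intervals are 95% and unadjusted. Normalized counts are counts over the TMM-scaled library size on the scale of the mean library. DESeq2 1.42.0, other filters and scalings, a replicate block, protein-coding genes alone and leaving out each library served as alternatives. The fitting step was tested on simulated data.

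The members and lists were chosen with earlier results of these data known. Named were the 10 genes, SFPQ, all genes of the short lists (dimer partners, MuvB, kinases, inhibitors) and, in other lists, the 3 lowest and 3 highest called genes with a mean of at least 1 CPM; overlapping genes, PRC1, NUSAP1, RFC4, RNF2, CBX3 and TDRD1 were named after their values were seen. A gene that this rule names is not reported here. Every library differed from its replicates by more than sampling noise (a chi-square over its degrees of freedom of 3.77 to 5.49 within and 82 to 102 between groups). Depth of 43469321 to 47119203 counts makes 3 counts, the limit a count of 0 allows, equal to 0.0637 to 0.069 CPM, for counting error alone.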

Additional observations from a re-analysis of the deposited data

How the results depend on the processing

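Each of the 6 called members and SFPQ kept direction and call under all 13 alternatives, with E2F5 between 0.82 and 0.95 and E2F1 between -0.27 and -0.19. E2F2 kept its direction and was not called under any of them. With a log2 fold change past 0.5, 2 members were lower, and past 1 or 1.5 the count was 0 in both directions. Scaling by total counts alone moved the median of all genes by 0.063, called 7622 genes higher and 5502 lower (58.1% of calls higher, beside 47.5% to 51.2% under the other alternatives and 50.4% as reported) and gave the small changes the opposite sign: 0.036 for E2F3, 0.022 for E2F4, 0.005 for E2F7, 0.061 for RBL2, 0.027 for MYBL1, 0.001 for MYBL2, 0.059 for CDC25A and 0.028 for CDKN1C. It also changed list counts to 2 lower in the MuvB list, 1 lower in the apoptosis list, 3 higher among G2/M targets and 7 higher in PRC1.6. The filterByExpr filter gave 2 higher G2/M targets, 1 higher germline gene, 967 genes higher past 1.5, and 0.002 for RBL2 and 0.001 for CDC25A. Protein-coding genes alone, 16477 tested, gave 2 higher G2/M targets, 0.008 for RBL2 and 0.007 for CDC25A. Past 1.5 that fit called 581 genes higher and 830 lower, beside 1609 and 1384 of the 29022 genes in the main fit. No count filter and DESeq2 each gave 1 higher germline gene. Leaving out a library gave -0.04 to 0.004 for E2F3 (positive without siSFPQ replicate 3), -0.02 to 0.029 for RBL2, -0.02 to 0.025 for CDC25A and -0.12 to 0.02 for CDKN1C. Over these fits the higher G1/S targets ranged from 2 to 5 (2 without siControl replicate 1 or siSFPQ replicate 2), the higher germline genes from 1 to 3 (3 without siControl replicate 3), and the lower apoptosis genes from 1 to 3 (1 without siControl replicate 2 or siSFPQ replicate 3). The cause of these differences was not tested.

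A pairing of same-numbered libraries was not seen. Their deviations correlated at -0.025, 0.07 and 0.036, and those of differently numbered libraries of the 2 groups at -0.072 to 0.035. Libraries numbered 2 and 3 correlated best with their own number, and those numbered 1 did not. With the replicate number as a block, 6530 genes were higher and 6424 lower, with 2 higher G2/M targets and 1 higher germline gene, and the same members were called.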

Other observations

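E2F3-IT1, a transcript inside an intron of E2F3 on the same strand, was at 0 counts throughout siControl and at 7, 9 and 7 counts in siSFPQ. Against a floor of 3 counts per library it was at least 2.54-fold higher, while E2F3 itself did not pass the test. E2F3-IT1 reached the count filter only through its siSFPQ counts, so its adjusted p is not given and its fold is no support. It was chosen after its values were seen, and it shares no exon bases with E2F3.

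Genes with a CHR motif in the promoter window and at least 1 CPM, 1754 in all, were lower in 43.8% and higher in 25.5% of cases, and their log2 fold changes had a median of -0.09. Of the 9431 genes without it, 34.7% were lower and 31.6% higher, with a median of -0.01. This is a description across genes, which are not replicates, and was not tested.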
